A study of Mus musculus with 15 samples.

Results

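The miR-29 family of the mouse has 3 mature guide strands, mmu-miR-29a-3p, mmu-miR-29b-3p and mmu-miR-29c-3p, written below without the species prefix. They were taken by name from small RNA profiles of Kupffer cells, which are macrophages that live in the sinusoids of the liver. All 3 were listed at both ages, as 3 of 248 mature miRNAs. The profiles came from lean C57BL/6J mice (wt) at 9 weeks (n = 4) and 14 weeks (n = 4), and from ob/ob mice at 9 weeks (n = 3) and 14 weeks (n = 4). Mice of the ob/ob genotype lack functional leptin in every tissue and become obese and insulin resistant, so the genotype is not specific to macrophages. The labels give no treatment, sex or background strain for the ob/ob mice, and do not say whether a library is 1 animal or a pool. The p-values below therefore measure only the spread between these libraries, which may be technical. The comparison asks how the 3 members differ with obesity at each age. The study as a whole concerns insulin resistance, a setting in which this family has been studied.

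A miRNA guides an Argonaute protein to messenger RNAs that pair with its seed, bases 2 to 8 from the 5′ end, and lowers the output of those messengers. The miR-29 family is best known for targeting messengers of collagens, elastin and fibrillin, and falls in activated stellate cells of the fibrotic liver. In liver, muscle and fat it has also been linked to insulin signalling, and miR-29 rises in several rodent models of diabetes. The members share their seed, and differ mainly towards the 3′ end, where miR-29b carries a hexamer known to direct it to the nucleus.

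The mature sequences are shown because the identity of the seed, and the few bases that separate the members, decide how their counts can be read. They are from RefSeq (GRCm38.p6), 5′ to 3′, with the seed in capitals.
miR-29a-3p: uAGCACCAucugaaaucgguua
miR-29b-3p: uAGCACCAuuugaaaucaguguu
miR-29c-3p: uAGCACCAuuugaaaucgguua
Among the 218 listed miRNAs with a sequence in RefSeq, and among all 1679 mature miRNAs of that table, these 3 were the ones with the seed AGCACCA. Positions are counted from 1 at the 5′ end. miR-29a-3p and miR-29c-3p differ by 1 substitution, C10U. miR-29a-3p and miR-29b-3p differ by C10U, G18A, U21G and A22U, and miR-29b-3p is 1 base longer. miR-29b-3p and miR-29c-3p differ by A18G, G21U and U22A. The hexamer AGUGUU, searched on the miRNA strand, ends miR-29b-3p and was found in 4 of the 218 sequences (1.83%), the others being miR-107-5p, miR-142a-3p and miR-199a-5p. The number of mismatches allowed in the authors' counting was not given in the sources used here. With 1 mismatch allowed, reads of miR-29a-3p and miR-29c-3p could be exchanged. As far as mismatches go, their split is therefore less certain than that of either against miR-29b-3p.

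The genes lie in 2 clusters (GRCm38.p6). Mir29a (chr6:31062660-31062747) and Mir29b-1 (chr6:31063023-31063093) lie on the minus strand with 275 bases between them, and Mir29b-1 overlaps the long noncoding RNA Gm27019 by 2 bases. Mir29b-2 (chr1:195037040-195037120) and Mir29c (chr1:195037547-195037634) lie on the plus strand with 426 bases between them. Both lie within an exon of the noncoding transcript A330023F24Rik, and opposite to the exon of Cd46 that holds its UTR (GENCODE M21). miR-29b-3p is encoded with the same sequence at chr6:31063025-31063047 and at chr1:195037091-195037113, so its reads could come from either cluster. The passenger arms miR-29b-1-5p and miR-29b-2-5p, which tell the loci apart, were not among the listed miRNAs. These values therefore do not show which cluster the reads of miR-29b-3p came from.

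To show what the seed pairs with, its site TGGTGCT was searched on the sense strand of the longest annotated 3′ UTR of each protein-coding gene (GENCODE M21). Of 21020 genes 13.1% held it, with a median UTR of 961 bases. Of 44 collagen genes 25 held it (56.8%), with a median UTR of 1032.5 bases. The following stretches of 20 bases, sense strand 5′ to 3′ with the site in capitals, are from messengers of 2 fibrillar collagens, of the regulatory subunit of phosphoinositide 3-kinase (Pik3r1), of a brake on sterol synthesis (Insig1) and of a caveolin (Cav2).
Col1a1 (chr11:94952526-94952545, plus strand): ggaaggaatttcTGGTGCTa
Col3a1 (chr1:45348970-45348989, plus strand): aaaatgtctcaaTGGTGCTa
Pik3r1 (chr13:101684502-101684521, minus strand): ggcctttaaccaTGGTGCTt
Insig1 (chr5:28077187-28077206, plus strand): gagggaggttgaTGGTGCTt
Cav2 (chr6:17287980-17287999, plus strand): ttcaagtaattcTGGTGCTa
Col5a1 held 4 matches, Eln (elastin) 3, and Col4a2, Fbn1 (fibrillin) and Igf1 held 2 each. Col4a1, Col5a2 and Irs1 held 1 each. Col1a2, Akt1, Akt2, Irs2 and Insr held none, which says only that these letters are not in the UTR searched. A match is a description of sequence, and no messenger RNA was measured in these libraries.

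Levels are given in RPM, reads per 1000000 reads, as deposited. Fold changes are on the scale of log2(RPM + 0.5) from limma, with the standard error and a Benjamini-Hochberg adjusted p over all miRNAs tested at that age, and were called at an adjusted p of at most 0.05. Depth, read from the smallest step between values, was 9.08 to 98.1 M reads (M, 1000000). At 9 weeks the wt libraries had 16.1 ± 4.44 M (SD, n = 4) and the ob/ob libraries 31.0 ± 4.46 M (n = 3). At 14 weeks they had 24.0 ± 12.2 and 63.2 ± 24.1 M (n = 4 each). The first wt library of 14 weeks stood apart, with 147387 RPM in all listed miRNAs, and the other 14 had 230785 to 358621. At 9 weeks the median log2 fold change of all 179 tested miRNAs was -0.51, and at 14 weeks that of 171 was 0.20. Each comparison is therefore also given after rescaling each library by its median ratio to the other libraries of its age, which brings these medians near 0. All libraries of 9 weeks were in lane 2. At 14 weeks lane 1 held replicates 1 and 2 of each genotype, and lane 2 held the other two.

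miR-29a-3p was the most abundant member in every library. It ranked 30th of the 248 miRNAs by mean level, miR-29c-3p ranked 68th and miR-29b-3p 81st. miR-29a-3p rested on 3354 to 92460 reads per library, miR-29c-3p on 276 to 10022 and miR-29b-3p on 163 to 6692. Counting error, computed as if reads were independent molecules, was at most 7.83% of a value, reached by miR-29b-3p in the first wt library of 14 weeks. The 3 members have 22 or 23 bases and each read spans a whole miRNA, so their levels can be set beside each other. Limits to this are unequal ligation in library making and the unknown counting of miR-29b-3p reads, which match 2 loci. miR-29a-3p made up on average 86.5 to 88.1% of the family in the 4 groups. miR-29c-3p made up 7.12 to 8.88% and miR-29b-3p 3.67 to 5.59%. The order miR-29a-3p, miR-29c-3p, miR-29b-3p held in all 15 libraries. All 3 members passed the filter of 1 RPM, and entered the tests, at both ages.

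**Figure D1:**
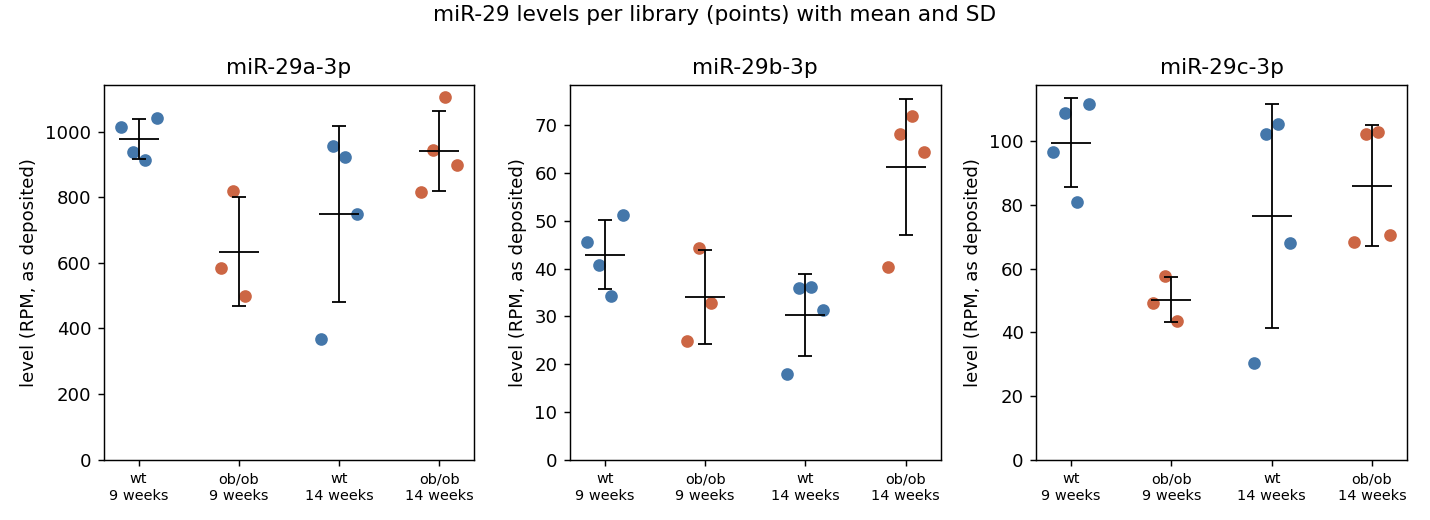
Level of each miR-29 member in RPM (vertical axes from 0, 1 scale per panel) in wt (blue) and ob/ob (orange) libraries at 9 and 14 weeks, with mean and SD. At 9 weeks the ob/ob points of miR-29c-3p (43.7 to 57.8) lie below all wt points (80.9 to 112), and at 14 weeks the ob/ob points of miR-29b-3p (40.3 to 72.0) lie above all wt points (17.95 to 36.2).

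At 9 weeks ob/ob libraries held less miR-29c-3p and less miR-29a-3p than wt on the deposited scale, and miR-29b-3p did not pass the test. Thus 2 of the 3 members were called lower, where 32.4% of all tested miRNAs were called lower. After rescaling none of the 3 was called in either direction, where 21.5% of all tested miRNAs were. With a GC correction added to the rescaling, 1 of the 3, miR-29c-3p, was called lower, where 11.9% of all tested were.

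mmu-miR-29c-3p, the member from the chromosome 1 cluster alone, was at 96.6, 108.8, 80.9 and 111.8 RPM in the wt libraries of 9 weeks. The ob/ob libraries held 49.3, 57.8 and 43.7 RPM. Every ob/ob library lay below every wt library, which held for 41.3% of all tested miRNAs at this age. The means were 99.5 ± 14.0 (SD, n = 4) and 50.3 ± 7.12 RPM (n = 3). The log2 fold change was -0.98 ± 0.20 (limma adjusted p = 0.00711). The call was kept when any 1 library was left out (limma adjusted p = 0.00718 to 0.0246). It ended with the replicate number as a block (limma adjusted p = 0.0793) and in 1 model of all 15 libraries (limma adjusted p = 0.0507). After rescaling the groups still did not overlap, with 74.8 to 95.9 in wt and 54.8 to 66.3 in ob/ob, as for 21.5% of all tested miRNAs. The fold change was then -0.47 ± 0.17, with an interval of -0.86 to -0.08 (95%), and did not pass (limma adjusted p = 0.0809). With the GC correction it was -0.67 ± 0.16 (limma adjusted p = 0.0320). Relative to the median of all tested miRNAs, miR-29c-3p was thus 0.47 lower in ob/ob as deposited, and its call depends on the scale and on the model.

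mmu-miR-29a-3p, from the chromosome 6 cluster, was at 1015, 936.6, 913.7 and 1042 RPM in wt. The ob/ob libraries of 9 weeks held 583.9, 819.1 and 500.2 RPM, all below wt, as for 41.3% of all tested miRNAs. The means were 977 ± 61.5 (SD, n = 4) and 634 ± 165 RPM (n = 3). The log2 fold change of -0.65 ± 0.21 (limma adjusted p = 0.0367) lay 0.15 below the median of all tested miRNAs. Its call ended when any library but ob/ob replicate 2 was left out (adjusted p up to 0.0995). After rescaling the groups overlapped, and the fold change was -0.14 with an interval of -0.56 to 0.28 (limma adjusted p = 0.609).

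mmu-miR-29b-3p, made from both clusters, was at 45.5, 40.8, 34.3 and 51.2 RPM in wt of 9 weeks. The ob/ob libraries held 24.9, 44.4 and 32.9 RPM. The groups overlapped, since ob/ob replicate 2 lay within the wt range. The means were 42.9 ± 7.16 (SD, n = 4) and 34.1 ± 9.80 RPM (n = 3). The log2 fold change was -0.35 ± 0.25 as deposited (limma adjusted p = 0.286) and 0.15 ± 0.22 after rescaling (limma adjusted p = 0.669), so its direction was set by the scale.

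At 14 weeks miR-29b-3p averaged higher in ob/ob and passed the test after rescaling, while miR-29a-3p and miR-29c-3p did not pass on any of the 3 scales. As deposited none of the 3 was called, where 15.2% of all tested miRNAs were called. After rescaling miR-29b-3p was called higher, so 1 of 3, where 15.5% of all tested were. With the GC correction none was called in either direction, where 23.2% of all tested were.

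miR-29b-3p was at 17.95, 35.9, 36.2 and 31.4 RPM in wt of 14 weeks. The ob/ob libraries held 40.3, 68.3, 72.0 and 64.5 RPM. All ob/ob libraries lay above all wt libraries, as for 22.2% of all tested miRNAs, with ob/ob replicate 1 close to the wt range. The means were 30.4 ± 8.58 and 61.3 ± 14.3 RPM (SD, n = 4 each). The log2 fold change was 1.02 ± 0.31, with an interval of 0.32 to 1.72 (limma adjusted p = 0.0535), which missed the threshold. After rescaling the wt libraries drew together at 28.3 to 32.6 and ob/ob stood at 34.2 to 68.7, again without overlap, as for 16.1% of all tested miRNAs. The rescaled fold change was 0.80 ± 0.23 (limma adjusted p = 0.0322). With the GC correction it was 0.46 ± 0.20 (limma adjusted p = 0.129).

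The deposited value of miR-29b-3p rests in part on the first wt library, the one that stood apart. Without it the log2 fold change was 0.79 ± 0.23 (limma adjusted p = 0.0425), and 0.81 ± 0.25 after rescaling (limma adjusted p = 0.0471). Without ob/ob replicate 1 the deposited fold change was 1.21 ± 0.30 (limma adjusted p = 0.0266). Without any 1 of the other 6 libraries the adjusted p lay between 0.0730 and 0.155 as deposited and between 0.0679 and 0.0885 after rescaling, so the rescaled call ended without each of these 6. Within lane 1 the fold change was 1.03 ± 0.80 (limma adjusted p = 0.657) and within lane 2 it was 1.004 ± 0.188 (limma adjusted p = 0.0326), with 2 libraries a group. After rescaling it was 0.52 ± 0.45 in lane 1 (limma adjusted p = 0.602) and 1.09 ± 0.19 in lane 2 (limma adjusted p = 0.00824). The direction was thus the same in both lanes. The call in lane 2 was 1 of 51 among 179 tested miRNAs there (63 of 177 after rescaling), while lane 1 had 1 call among 173 (0 after rescaling).

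miR-29a-3p was at 369.4, 955.5, 922.0 and 749.1 RPM in wt of 14 weeks, the first library being lowest. The ob/ob libraries held 816.1, 943.0, 1105 and 897.4 RPM, and the groups overlapped. The means were 749 ± 269 and 940 ± 122 RPM (SD, n = 4 each). The log2 fold change was 0.41 ± 0.33 (limma adjusted p = 0.448), and 0.10 ± 0.18 without the first wt library (limma adjusted p = 0.676). After rescaling it was 0.19, with an interval of -0.21 to 0.59 (limma adjusted p = 0.464).

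miR-29c-3p was at 30.4, 102.3, 105.4 and 68.0 RPM in wt of 14 weeks, again lowest in the first library. The ob/ob libraries held 68.5, 102.2, 103.0 and 70.7 RPM, within the wt range. The means were 76.5 ± 35.1 and 86.1 ± 19.1 RPM (SD, n = 4 each). The log2 fold change was 0.30 ± 0.41 (limma adjusted p = 0.693) and -0.09 ± 0.25 without the first wt library (limma adjusted p = 0.790). After rescaling it was 0.08, with an interval of -0.47 to 0.63 (limma adjusted p = 0.842).

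**Figure D2:**
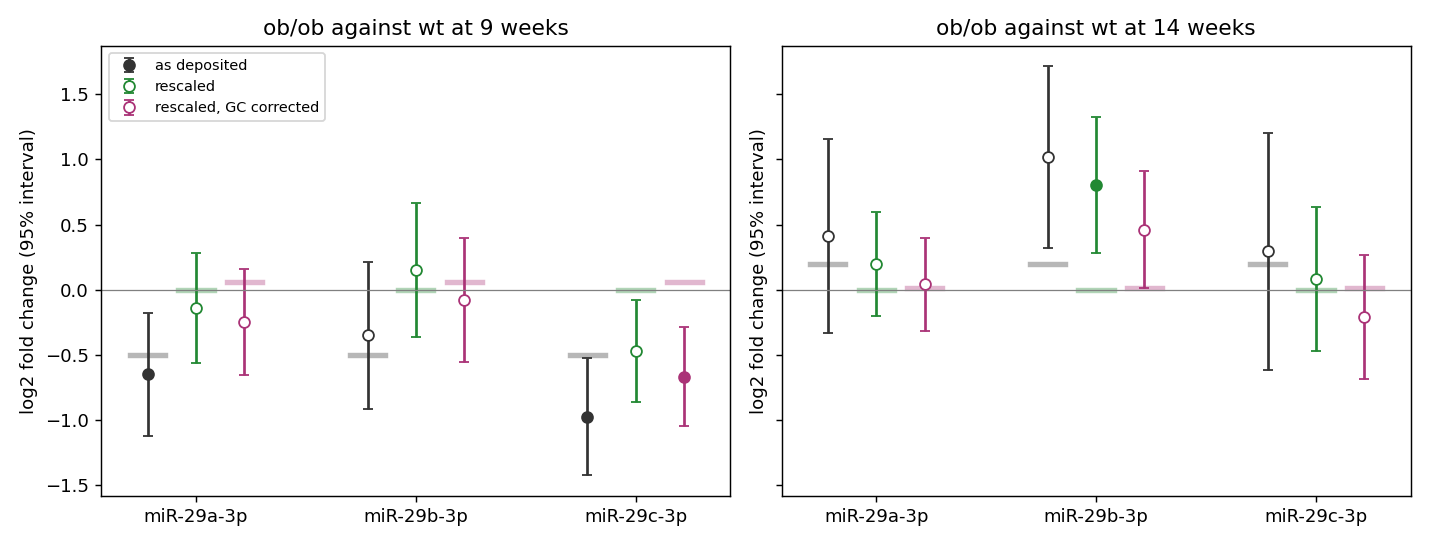
Log2 fold change of each member, ob/ob against wt, with its 95% interval, at 9 weeks (left) and 14 weeks (right), as deposited (black), rescaled (green) and rescaled with GC correction (magenta). Filled points passed an adjusted p of 0.05, and the pale bar behind each point is the median of all tested miRNAs on that scale, -0.51 at 9 weeks and 0.20 at 14 weeks as deposited.

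Whether the ob/ob effect differed between the ages was tested as the interaction of genotype and age. The ages are separate tables, so their levels were not tested against each other. The difference of the log2 fold changes, 14 minus 9 weeks, was 1.06 ± 0.41 for miR-29a-3p, 1.37 ± 0.40 for miR-29b-3p and 1.27 ± 0.49 for miR-29c-3p (limma adjusted p = 0.132 each). The median of all 187 tested miRNAs was shifted by 0.68 in the same direction. After rescaling the differences were 0.34, 0.65 and 0.55, with limma adjusted p of 0.620, 0.568 and 0.568. By limma 0 of 187 miRNAs (0%) were called on either scale, and 48 as deposited and 16 after rescaling (25.7% and 8.56%) had an unadjusted p under 0.05. The fall of miR-29c-3p at 9 weeks is thus not shown to differ from its value at 14 weeks.

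**Figure D3:**
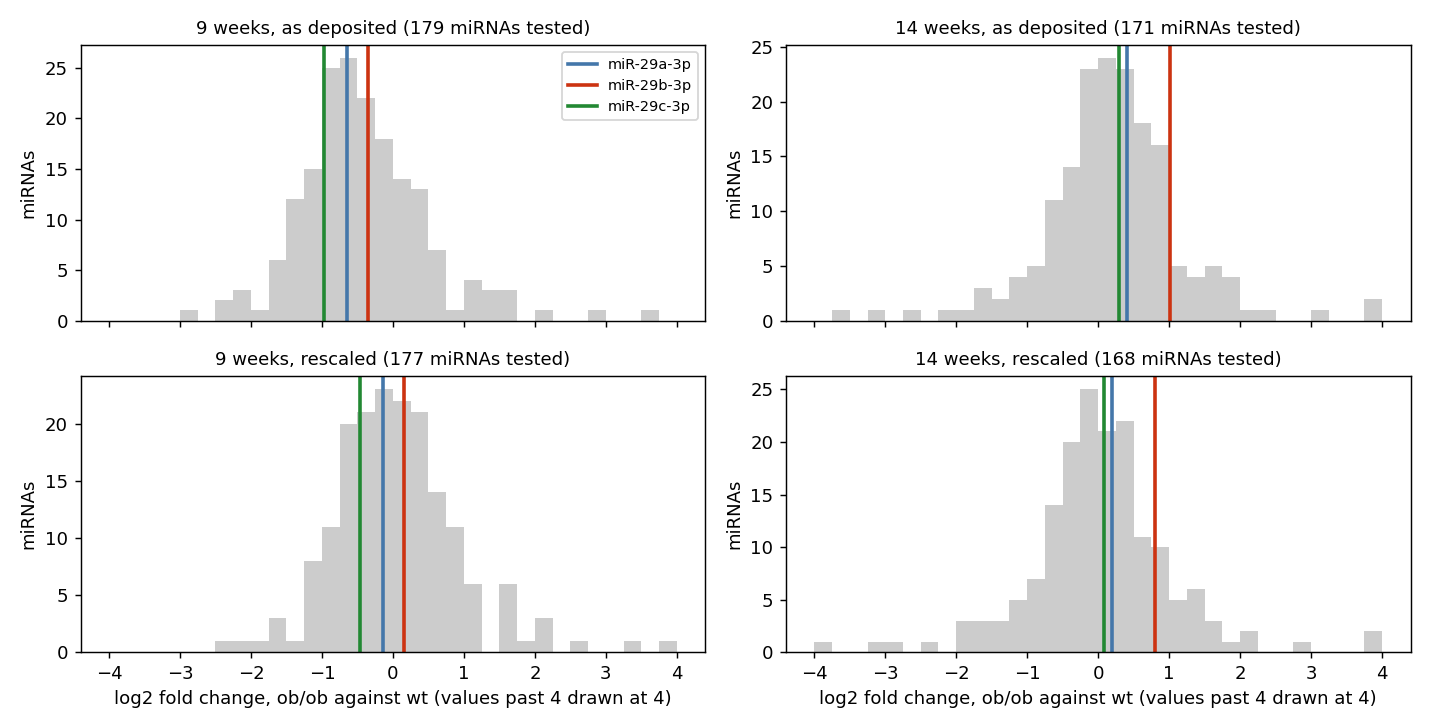
Number of miRNAs (vertical axes) by log2 fold change of ob/ob against wt (horizontal axes, values past 4 drawn at 4), at 9 weeks (left) and 14 weeks (right), as deposited (top) and rescaled (bottom), with coloured lines at the 3 members. In all 4 panels the lines stand in the order miR-29c-3p, miR-29a-3p, miR-29b-3p from low to high, and they lie inside the bulk of the tested miRNAs at 9 weeks.

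Ratios of the members inside 1 library do not depend on how that library was scaled, and 6 were tested, 3 at each age. The balance between miR-29b-3p and miR-29c-3p averaged higher in ob/ob at both ages, without passing the adjusted test. At 9 weeks the ratio of miR-29b-3p to miR-29c-3p averaged 0.432 ± 0.0430 in the wt libraries (SD, n = 4) and 0.676 ± 0.148 in the ob/ob libraries (n = 3). On the log2 scale this was -1.22 ± 0.15 and -0.59 ± 0.34, without overlap (two-sided exact permutation p = 0.0571, adjusted over the 6 tests 0.0857). That is the smallest p which 4 against 3 libraries can give. At 14 weeks the ratio was 0.437 ± 0.116 in wt and 0.717 ± 0.138 in ob/ob (n = 4 each), or -1.23 ± 0.37 and -0.50 ± 0.27 on the log2 scale (exact permutation p = 0.0571, adjusted 0.0857). The groups overlapped there, the first wt library reaching -0.76. The difference was 0.46 in lane 1 and 1.004 in lane 2.

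miR-29b-3p to miR-29a-3p stood at -4.59 ± 0.16 in wt and -3.97 ± 0.26 in ob/ob of 14 weeks on the log2 scale (SD, n = 4 each). The groups were separated narrowly, with -4.36 as the highest wt value and -4.34 as the lowest of ob/ob (exact permutation p = 0.0286, the smallest that 4 against 4 can give, adjusted 0.0857). The difference was 0.48 in lane 1 and 0.75 in lane 2. At 9 weeks this ratio overlapped, at -4.52 ± 0.16 in wt (n = 4) and -4.23 ± 0.31 in ob/ob (n = 3; exact permutation p = 0.229, adjusted 0.274). miR-29c-3p to miR-29a-3p was lower in every ob/ob library of 9 weeks, at -3.30 ± 0.17 in wt and -3.64 ± 0.17 in ob/ob (exact permutation p = 0.0571, adjusted 0.0857). At 14 weeks it was -3.35 ± 0.22 and -3.47 ± 0.20 (exact permutation p = 0.457). None of the 6 ratios passed after adjustment, which the numbers of libraries fixed in advance. Ratios without overlap between the genotypes made up 40.5% of all pairs of tested miRNAs at 9 weeks and 33.4% at 14 weeks, so 2 of 3 and 1 of 3 for this family are not far from that background.

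**Figure D4:**
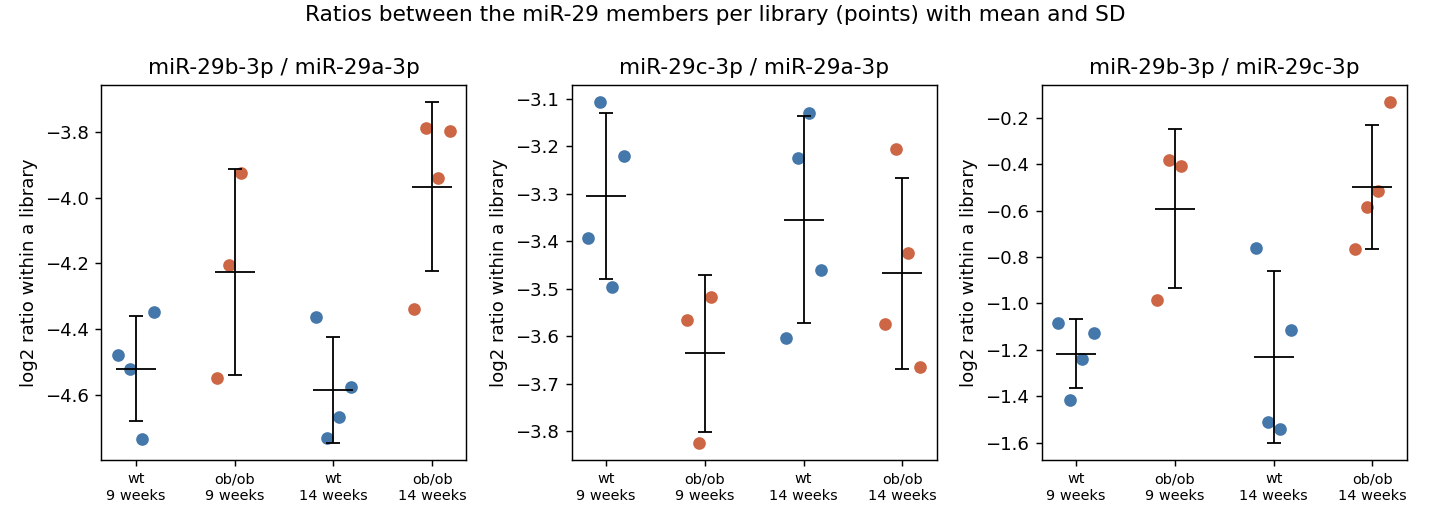
Log2 ratio between 2 miR-29 members inside each library (vertical axes, not from 0), for wt (blue) and ob/ob (orange) at 9 and 14 weeks, with mean and SD. The ratio of miR-29b-3p to miR-29c-3p averages -1.22 and -1.23 in wt, and -0.59 and -0.50 in ob/ob.

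Base composition moved with genotype across the whole tables. The slope of a library's rescaled log2 level on the GC content of the mature sequence, per 10 percentage points and relative to the mean of its age, was 0.03 to 0.13 in wt and -0.13 to -0.08 in ob/ob at 9 weeks. At 14 weeks it was 0.09 to 0.29 in wt and -0.24 to -0.004 in ob/ob, so at neither age did the genotypes overlap, and miRNAs poor in GC stood relatively higher in ob/ob. The members have 40.9% (miR-29a-3p), 34.8% (miR-29b-3p) and 36.4% (miR-29c-3p) GC. miR-29b-3p and miR-29c-3p are close in GC, so a correction by these slopes could move their ratio only little. After correcting the ratios by these slopes, that of miR-29b-3p to miR-29c-3p differed by 0.59 at 9 weeks and 0.68 at 14 weeks on the log2 scale. That of miR-29b-3p to miR-29a-3p differed by 0.43 at 14 weeks in place of 0.62, and its groups then overlapped (exact permutation p = 0.0571, adjusted 0.0857). The slopes cannot be told apart from genotype in this design.

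The passenger arms, degraded from most duplexes, were scarce. They are shown because the arm identifies the hairpin.
miR-29a-5p: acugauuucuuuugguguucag
miR-29c-5p: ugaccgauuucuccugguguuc
miR-29a-5p was at 0.0204 to 3.65 RPM over the 15 libraries and amounted to 0.161 to 0.390% of miR-29a-3p in wt of 9 weeks. Its lowest value, in ob/ob replicate 2 of 14 weeks, rested on 2 reads. miR-29c-5p was at 0.374 to 1.89 RPM, or 0.550 to 2.54% of miR-29c-3p, so its share was larger than that of miR-29a-5p in every group. At 9 weeks miR-29a-5p averaged 2.71 ± 0.863 RPM in wt and 1.39 ± 0.462 in ob/ob (limma adjusted p = 0.0882). miR-29c-5p averaged 1.16 ± 0.181 and 0.633 ± 0.140 RPM. It reached the filter of 1 RPM at 9 weeks through wt libraries alone, and at 14 weeks ob/ob alone would have passed it, so its values are given without a test. At 14 weeks they averaged 2.28 ± 1.22 and 1.69 ± 1.20 RPM for miR-29a-5p (limma adjusted p = 0.639), and 0.976 ± 0.4995 and 1.503 ± 0.346 RPM for miR-29c-5p. miR-29a-5p was not called at either age.

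The miRNAs most alike in pattern were sought among the 165 tested at both ages, by Pearson's r of rescaled log2 values centred on the mean of each age, over 15 libraries. These points share their libraries, their depth and the genotype groups, so r is a description. For miR-29b-3p the closest were miR-32-5p (0.90), miR-30e-5p (0.90) and miR-340-5p (0.89), which have 31.8%, 40.9% and 27.3% GC. For miR-29a-3p they were miR-107-3p (0.77), miR-200a-3p (0.77) and miR-32-5p (0.68). For miR-29c-3p they were miR-188-5p (0.81), miR-101a-3p (0.80) and let-7i-3p (0.73). Within the family r was 0.72 between miR-29a-3p and miR-29c-3p, 0.64 between miR-29a-3p and miR-29b-3p and 0.29 between miR-29b-3p and miR-29c-3p. By Spearman's rho these were 0.575, 0.618 and 0.218, so which pair was closest depends on the measure. At 14 weeks miR-340-5p averaged 599 ± 181 RPM in wt and 1674 ± 428 in ob/ob (log2 fold change 1.5 ± 0.33, limma adjusted p = 0.0141). At 9 weeks miR-188-5p averaged 15.8 ± 5.05 and 3.26 ± 1.39 RPM (log2 fold change -2.14 ± 0.34, limma adjusted p = 0.00485).

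Other miRNAs known from insulin and lipid metabolism were set beside the family, 11 of a list of 14 being tested. At 9 weeks 2 were called higher and 2 lower in ob/ob, where 9 and 58 of all 179 tested were, with a median log2 fold change of -0.44 beside -0.51 for all tested. miR-34a-5p, a p53-induced repressor of the deacetylase Sirt1, rose from 5.54 ± 1.72 to 13.6 ± 1.51 RPM (limma adjusted p = 0.00984). miR-26a-5p, known to improve insulin sensitivity in liver, fell from 27078 ± 1802 to 17447 ± 822 RPM (limma adjusted p = 0.00909). miR-103-3p, a repressor of caveolin in insulin signalling, fell from 88.9 ± 22.5 to 41.6 ± 6.25 RPM (limma adjusted p = 0.0111). After rescaling 2 were called higher and none lower, where 20 and 18 of all 177 tested were, with limma adjusted p of 0.510 for miR-26a-5p and 0.0852 for miR-103-3p. At 14 weeks 2 were called higher and none lower, where 20 and 6 of all 171 tested were, with a median of 0.57 beside 0.20. They were miR-34a-5p, from 4.76 ± 1.17 to 18 ± 4.56 RPM (limma adjusted p = 0.00256), and miR-335-3p, from 26.3 ± 11.8 to 74.3 ± 20.8 RPM (limma adjusted p = 0.0352). After rescaling 4 were called higher and none lower, where 26 and 21 of all 168 tested were.

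Of 14 miRNAs known from collagen control and fibrosis 11 were tested. At 9 weeks 5 were called lower and none higher, where 58 (32.4%) and 9 of all 179 tested were, with a median log2 fold change of -0.51, equal to that of all tested. miR-199a-3p, abundant in mesenchymal cells, fell from 902 ± 126 to 317 ± 99.9 RPM (limma adjusted p = 0.00525). miR-30c-5p, a repressor of connective tissue growth factor, fell from 2512 ± 401 to 979 ± 307 RPM (limma adjusted p = 0.00538). miR-222-3p, raised in activated stellate cells, fell from 372 ± 12.8 to 168 ± 53.0 RPM (limma adjusted p = 0.00566). After rescaling 2 were called lower, miR-199a-3p and miR-30c-5p, and 1 higher, miR-146a-5p (limma adjusted p = 0.0371, 0.0371 and 0.0435), where 18 and 20 of all 177 tested were. At 14 weeks none was called as deposited, where 26 of all 171 tested were, and miR-30c-5p and miR-222-3p were called lower after rescaling (limma adjusted p = 0.0104 and 0.0164), where 21 of all 168 tested were called lower.

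The summed hepatocyte markers and the erythroid marker were higher in ob/ob at both ages. Some markers of other cell types were called lower at 9 weeks, and miR-143-3p was called higher at 14 weeks after rescaling. The summed level of 5 hepatocyte miRNAs was 1156 to 2273 RPM in wt and 4035 to 5597 in ob/ob at 9 weeks, and 1154 to 1738 and 3296 to 6950 at 14 weeks, without overlap at either age. Of the 4 tested, 2 were called higher at each age as deposited and none lower. Among all tested miRNAs 9 of 179 were called higher at 9 weeks and 20 of 171 at 14 weeks. None of the 5 was at 0 in any library. Most of the sum was miR-192-5p, which averaged 1556 RPM in the wt and 4494 RPM in the ob/ob libraries of 9 weeks, and 1317 and 5212 RPM in those of 14 weeks. miR-122-5p, the defining miRNA of hepatocytes, spanned 18.4 to 73.1 RPM in the wt and 113 to 228 RPM in the ob/ob libraries of 9 weeks (limma adjusted p = 0.0244). At 14 weeks it overlapped, at 15.2 to 101 and 36.9 to 79.4 RPM (limma adjusted p = 0.551). miR-122-3p averaged 0.461 and 0.359 RPM at 9 weeks and overlapped at both ages. The erythroid arm miR-144-5p was at 0.522 to 1.49 RPM in wt and 14.7 to 21.7 in ob/ob at 9 weeks, and at 0.331 to 0.974 and 11.6 to 32.4 at 14 weeks. The summed levels of the other cell types overlapped between genotypes at 14 weeks. At 9 weeks all of them overlapped but those of the lymphocyte markers, of which none was called. As deposited at 9 weeks, 3 of 6 tested stellate and mesenchymal, 1 of 2 endothelial and 1 of 2 myeloid markers were called lower. Among all tested miRNAs 32.4% were called lower there. After rescaling only 1 of these markers, miR-199a-3p, was called lower, where 18 of all 177 tested were. The stellate and mesenchymal marker miR-143-3p averaged 671 RPM in wt and 890 in ob/ob of 9 weeks, without a call. At 14 weeks it was called higher after rescaling (limma adjusted p = 0.0488), where 26 of all 168 tested were. It was the only call of 6 tested there, and was not called as deposited or with the GC correction. The summed stellate and mesenchymal markers, 7 listed of 8, were at 1385 to 1885 RPM in wt and 1033 to 1644 in ob/ob at 9 weeks, and at 496 to 1865 and 1559 to 3011 at 14 weeks. Of these, miR-199a-5p, miR-199b-3p and miR-145a-5p were listed at 0 in some libraries. The 2 endothelial arms summed to 42296 to 59286 and 18455 to 45923 RPM at 9 weeks, and to 10833 to 63153 and 33630.5 to 55779 at 14 weeks, where 1 ob/ob library had miR-126a-3p at 0. Lymphocyte markers, 3 of 3 listed, summed to 7421 to 7649 and 4935 to 6729 RPM at 9 weeks, and to 5075 to 8207 and 5752 to 7982 at 14 weeks. Which of these cell types the miR-29 reads came from was not measured. In bulk libraries a different mix of cells and a different level per cell cannot be told apart. The part of this mix in the differences of the miR-29 members was not tested.

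The labelled cell type rests on few miRNAs here. Of 4 myeloid and Kupffer markers 3 were listed, and their sum was 3144 to 4465 RPM in wt and 2139 to 3272 in ob/ob at 9 weeks, and 1833 to 2917 and 2386 to 4026 at 14 weeks. Most of it was miR-142a-5p, at a mean of 3652.5 RPM in wt of 9 weeks. miR-511-3p spanned 145 to 169 RPM in wt and 53.6 to 101 in ob/ob at 9 weeks, without overlap, as for 41.3% of all tested. It was called lower there as deposited and with the GC correction, but not after rescaling alone (limma adjusted p = 0.0860). At 14 weeks it overlapped, at 77.3 to 183 and 101 to 145 RPM. Its only call there was lower, with the GC correction (limma adjusted p = 0.0130). miR-142a-3p, a defining miRNA of blood cells, was listed at 0 in some library of every group but ob/ob of 14 weeks. It spanned 0 to 0.149 RPM in wt and 0 to 0.150 in ob/ob of 9 weeks, and 0 to 0.0844 in wt of 14 weeks. In ob/ob of 14 weeks it spanned 0.159 to 18.6 RPM. Where a marker is listed at exactly 0 beside high values in other libraries, the 0 may be a failed assignment.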

How the data were processed

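Small RNA was extracted with a column kit, made into libraries with the TruSeq Small RNA kit and sequenced on an Illumina HiSeq, per the labels' protocols. The submitters' processing notes name bcl2fastq, cutadapt, GRCm38.p5 and mm10. An aligner, a counting tool and an annotation of miRNAs were not given in the sources used here. Each age has its own table of the same 248 miRNAs, and the values deposited there were taken as RPM. The unit was inferred from the values: in every library 100.0% of 137 to 169 values of up to 2000 reads were whole multiples of 1 step within 0.1 reads. No count model was used, because too few values were low enough for an independent check of that step, and the reads are not independent molecules.

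With limma 3.58.1 (R 4.3.3, trend and robust options), log2(RPM + 0.5) was tested in each age alone, over miRNAs with at least 1 RPM in at least 3 libraries at 9 weeks and 4 at 14 weeks. The interaction used all 15 libraries. For rescaling, each library was divided by its median ratio to the geometric mean of its age, over miRNAs with a mean of at least 5 RPM and no 0. The GC correction was linear per library, with sequences for 218 of 248 miRNAs (87.9%), and left the others as they were. Ratios were tested by two-sided exact permutation, the smaller tail doubled. The design was written for normalized values, which applied. On simulated data, 2-fold changes were recovered in 56.8% of cases at 9 weeks (177 miRNAs), 67.5% at 14 weeks (168 miRNAs) and 41.0% for the interaction (187 miRNAs). For 4-fold changes the shares were 86.0%, 88.2% and 77.8%. The simulation drew independent normal noise for each miRNA around its mean rescaled level, with changes up or down at random. A call in either direction counted as recovered. No shift of a whole library and no slope on GC was simulated, so these shares do not describe the tests on the deposited scale.

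The members and the lists were chosen with earlier results of these data known. Named miRNAs were the 3 members, their listed passenger arms, the 3 most alike to each member, and up to 3 called members of each list by smallest p. The alternatives tried were rescaling, GC correction, pseudocounts of 1 and 0.1, no filter or one of 10 RPM, limma without robust fitting, lanes, the replicate number as a block, 1 model of all groups, and leaving out each library.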

Additional observations from a re-analysis of the deposited data

How the results depend on the processing

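The number of miRNAs called at 9 weeks, 67 as deposited, was 38 after rescaling and 42 with the GC correction. Leaving out each library gave 53 to 71 as deposited and 14 to 37 after rescaling. At 14 weeks, 26 as deposited became 47 after rescaling, 47 in 1 model of all 15 libraries, 44 with lane as covariate after rescaling, 1 in lane 1 (0 rescaled) and 51 in lane 2 (63 rescaled). Leaving out each library gave 13 to 46, and 28 to 55 after rescaling. The interaction, 0 as deposited, had 4 calls with no filter, 2 with a filter of 10 RPM, 2 from lane 2 libraries alone (1 rescaled), and 0 to 3 leaving out each library (0 to 2 rescaled). In 1 model of all libraries the calls of miR-29a-3p (adjusted p = 0.113) and miR-29c-3p (0.0507) at 9 weeks ended, and miR-29b-3p at 14 weeks was called (0.0140). miR-29b-3p at 9 weeks reversed to 0.15 on rescaling, and stood between -0.56 and 0.35 without single libraries on either scale. miR-29c-3p at 14 weeks reversed to -0.21 with the GC correction, and to -0.093 as deposited and -0.071 rescaled without wt replicate 1, within a range of -0.093 to 0.50 without single libraries. miR-29a-5p at 14 weeks reversed to 0.089 without ob/ob replicate 2, within a range of -0.84 to 0.089. The ratio of miR-29c-3p to miR-29a-3p at 14 weeks differed by 0.023 in lane 1 alone, in place of a fall. Apart from the alternatives named here and in the report, the cause of these shifts was not tested. The rescaled block and lane fits, the lane 2 interaction and the GC correction of ratios were added after seeing the data.

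Genotypes share replicate numbers, but residuals of same-numbered libraries correlated at -0.14 to 0.28 at 9 weeks and -0.23 to 0.18 at 14 weeks, so the numbers were not taken to pair the libraries, although at 14 weeks same-numbered libraries also share a lane. With the replicate block, 32 miRNAs were called at 9 weeks, 13 after rescaling and 7 after rescaling with GC correction, and 2 by the interaction. In the block fits miR-29b-3p at 14 weeks had an adjusted p of 0.0452 (0.0705 rescaled), and miR-29a-3p and miR-29c-3p at 9 weeks 0.207 and 0.0793. miR-29b-3p at 9 weeks stood at 0.25 with the block after rescaling, and miR-29c-3p at 14 weeks at -0.21 with the block and the GC correction.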

Other observations

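The 3 members together held a small share of the listed miRNAs. At 9 weeks their sum averaged 1119 ± 77.7 RPM in the wt libraries (SD, n = 4) and 719 ± 180 RPM in the ob/ob libraries (n = 3). At 14 weeks it averaged 856 ± 312 and 1088 ± 150 RPM (n = 4 each). The share of the listed total lay between 0.234% (ob/ob replicate 3 of 9 weeks) and 0.384% (ob/ob replicate 3 of 14 weeks). The first wt library of 14 weeks, which has the lowest listed total, had a family share of 0.283%, inside the range of the other libraries.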
